A study of Mus musculus with 9 samples.

Results

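The core circadian clock loop was followed in RNA sequencing of whole liver through 8 genes, the activators Arntl, Clock and Npas2 and the repressors Per1, Per2, Per3, Cry1 and Cry2. The members were a list given by gene symbol. All 8 were found among the 55401 genes of the count table, and all 8 passed the filter on low counts, which left 15717 genes to test. Npas2 passed through its counts in the HCC livers alone. The 9 female mice, aged 6 weeks at the start, formed 3 groups of 3 livers. Healthy livers were WT, untreated, and received neither plasmid nor virus. Untreated HCC and miR-22-treated HCC were both labelled WT with HCC: sleeping beauty plasmids for activated AKT (EF1α promoter) and NRAS (CAGGS promoter) were driven into hepatocytes by hydrodynamic tail vein injection, and AAV8 followed at week 1. The virus was a blank AAV8 in untreated HCC and AAV8-miR-22 in miR-22-treated HCC, and the livers were taken at week 5, 4 weeks after the virus. The labels also list a β-catenin plasmid that the series design does not name, and they give the strain as FVB/N in one field and C57BL/6 in another. Each HCC liver holds tumor and surrounding tissue together. In such bulk samples, fewer cells of a type and less RNA per cell cannot be told apart.

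Within the loop, BMAL1, the protein of Arntl, pairs with CLOCK or with its paralog NPAS2, binds E-boxes and switches on the Per and Cry genes, whose proteins return to the nucleus and block the pair. REV-ERB and ROR receptors repress and activate Arntl and Npas2 through ROR elements, and the PAR bZIP factors DBP, TEF and HLF act on D-boxes. In mouse liver most of these transcripts rise and fall over the day, Arntl and Npas2 out of phase with the Per genes, and the time of feeding sets their phase. Neither the clock time of harvest nor the feeding state of the mice is given in the sources used here, so that time of harvest and group cannot be told apart in any comparison of the loop.

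The elements through which the loop acts are shown for the members whose promoter window held one. The windows, from RefSeq on GRCm38.p6, run from 250 bases before to 50 bases after a transcription start, and 7 of the 8 members matched, all but Per2, with 11 windows. Searched on both strands were the E-box CACGTG, the E-prime box CACGTT, the D-box TTATGTAA or TTACGTAA, the core of the ROR element TAGGTCA and the cyclic AMP response element TGACGTCA, which were found in 7.15%, 4.68%, 1.06%, 2.61% and 1.79% of 32851 windows of all genes. No 2 matches in the members overlapped. Capitals mark the match, with 20 bases on either side except after the match in Arntl, where the window ends, each sequence 5′ to 3′ on the strand of its gene.
Arntl, ROR element core 31 bases after the start, chr7:113207521-113207560, plus strand: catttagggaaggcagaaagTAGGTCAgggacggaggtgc
Per1, E-box 166 bases before the start, chr11:69098763-69098808, plus strand: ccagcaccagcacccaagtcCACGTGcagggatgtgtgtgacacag
Per3, D-boxes 205 and 158 bases before the start, chr4:151044796-151044890, minus strand: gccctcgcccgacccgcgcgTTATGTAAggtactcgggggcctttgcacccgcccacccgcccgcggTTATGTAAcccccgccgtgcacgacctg
Cry1, E-prime box 79 and E-box 60 bases before the start, chr10:85185089-85185153, minus strand: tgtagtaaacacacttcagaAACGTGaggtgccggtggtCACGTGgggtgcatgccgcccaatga
Cry2, E-prime box 166 bases before the start, chr2:92434210-92434255, minus strand: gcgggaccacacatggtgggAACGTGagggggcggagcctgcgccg
None of these letters stood in the windows of Clock and Npas2. A match is a run of letters and was not tested as a binding site.

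The virus delivered miR-22-3p, whose mature sequence in RefSeq, from chr11:75463772-75463793 on the plus strand of GRCm38.p6, is given with its seed, bases 2 to 8, in capitals.
miR-22-3p: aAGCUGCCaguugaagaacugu
A perfect match to this seed, GGCAGCT, was searched for in the longest annotated 3′ UTR of each gene. Of the 8 members, 1 held a match, Per3, at base 718 of a UTR of 2287 bases, and 16.7% of 20968 genes held one. The site and its surroundings are shown with the match in capitals.
Per3 site: tccatgaagttcctgtGGCAGCTgccttt

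Healthy libraries held 18258660 to 20964551 counts, libraries of untreated HCC 18293676 to 23908392, and those of miR-22-treated HCC 16664659 to 20459853. The TMM factors, which correct for the composition of a library, spanned 0.865 to 0.872 for healthy livers, 1.12 to 1.22 for untreated HCC, and 0.942 to 1.03 for HCC given miR-22. Replicate libraries differed by 6.13 to 28.4 times the counting noise (chi-square per degree of freedom), and none was a copy of another. The labels do not say more of the replicates than their numbers, and p-values measure the spread between these 3 livers per group. All levels are TMM-normalized counts unless stated. Differences were called by edgeR's quasi-likelihood test at a Benjamini-Hochberg adjusted p under 0.05 over all tested genes and a fold change over 1.5, and "rose" and "fell" are used for called genes.

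In untreated HCC the activators Arntl, Clock and Npas2 rose against healthy livers and the repressors Per1, Per2, Per3 and Cry2 fell. Of the members, 7 of 8 were called, 3 higher and 4 lower, and Cry1 was not. Over all tested genes 40.8% were called in this comparison, 22.7% higher and 18.1% lower. The median log2 fold change was −0.59 over the members and 0.01 over all tested genes. In 7 of 8 members no liver of one group reached into the other group, against 65.3% of all tested genes.

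With miR-22, levels of 6 of 8 members were called different from untreated HCC. Arntl, Npas2 and Cry1 fell, and Per1, Per3 and Cry2 rose. Over all tested genes 13.8% were called, 8.32% higher and 5.47% lower. The median log2 fold change was 0.02 over the members, in which rises and falls offset each other, and 0.002 over all tested genes. In all 8 members the livers of the 2 groups did not overlap, against 39.3% of all tested genes.

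Set against healthy livers, miR-22-treated HCC had 6 of 8 members called, with Arntl and Npas2 higher and Per2, Per3, Cry1 and Cry2 lower. Over all tested genes 24% were called, 16.9% higher and 7.05% lower. The median log2 fold change was −0.23 over the members and 0.02 over all tested genes. Livers did not overlap in 6 of 8 members, all but Clock and Per1, against 48.8% of all tested genes. Each pair of the 3 comparisons shares a group of livers, so they are not independent of each other, and the values of each are given side by side below.

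**Figure D1:**
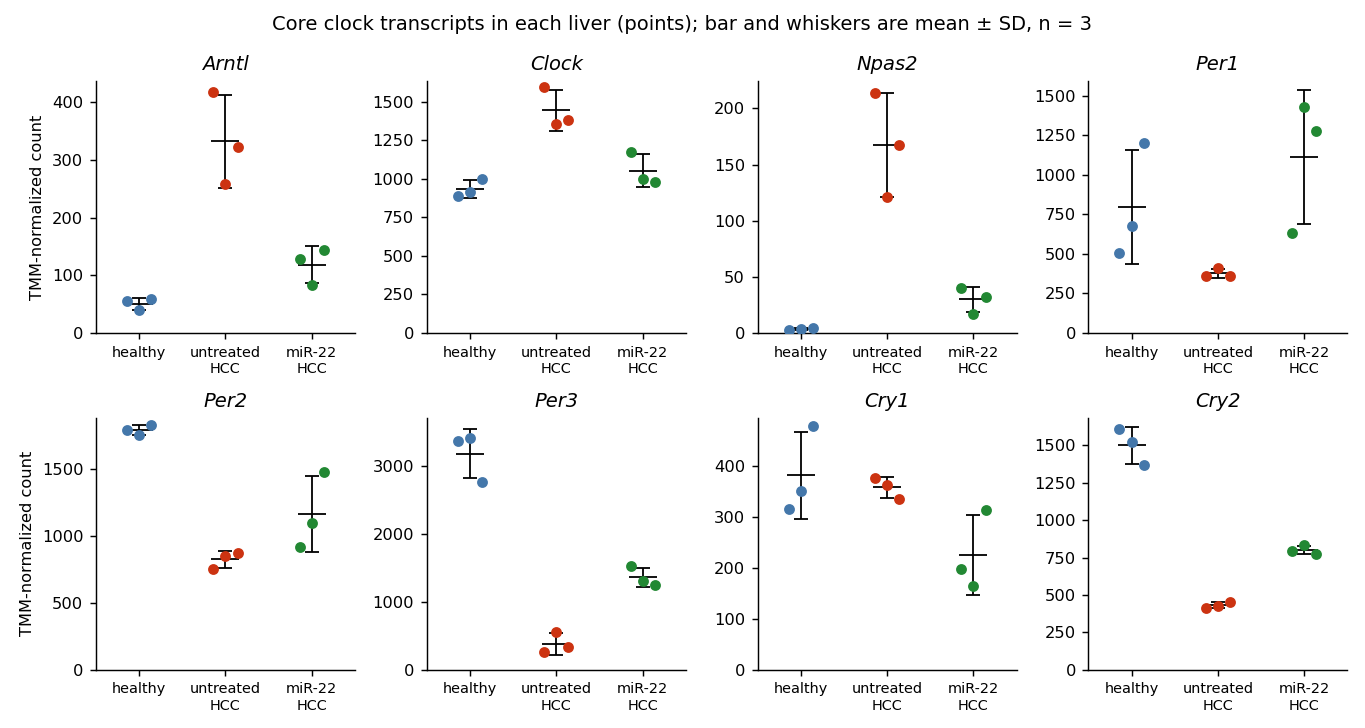
Levels of the 8 clock genes in each liver, as TMM-normalized counts on linear axes that start at 0. Each point is 1 liver, ordered as healthy, untreated HCC and miR-22-treated HCC, and the black bar is the mean ± SD over 3 livers. Npas2 lies between 2.44 and 4.26 in healthy livers and between 121 and 214 in untreated HCC, while the healthy and untreated livers overlap for Cry1.

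The activators had their lowest means in healthy livers. Arntl (ENSMUSG00000055116.8, chr7:112806152-112914735 on GRCm39, plus strand), which encodes the obligate partner BMAL1, measured 54.9, 39.1 and 58.6 in healthy livers 1 to 3, 418, 258 and 322.5 in untreated livers 2 to 4, and 129, 82.9 and 145 in miR-22-treated livers 2 to 4. The 3 groups did not overlap, with the miR-22-treated livers between the others. Means were 50.9 ± 10.4 in healthy livers, 333 ± 80.6 in untreated HCC and 119 ± 32.2 in miR-22-treated HCC (SD, n = 3 each). Arntl rose in untreated HCC by a log2 fold change of 2.70 (SE 0.252, edgeR adjusted p = 1.95e-06). It fell with miR-22 by 1.48 on the log2 scale (SE 0.229, edgeR adjusted p = 0.000996), and the difference of miR-22-treated HCC from healthy livers was 1.23 (SE 0.260, edgeR adjusted p = 0.00286).

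Npas2 (ENSMUSG00000026077.15, chr1:39232705-39402323, plus strand), the paralog that can replace CLOCK, had the widest range of the members as a ratio of highest to lowest liver. Its levels were 2.44, 3.67 and 4.26 in healthy livers, 214, 121 and 167 in untreated HCC, and 39.9, 17.3 and 32.3 in miR-22-treated HCC. The groups did not overlap, and the healthy livers were near 0. The raw counts were 2, 3 and 4 in healthy livers, 235, 139 and 231 in untreated HCC and 36, 14 and 35 in miR-22-treated HCC. The ratio of summed counts per effective library size was 47.7 for untreated HCC against healthy livers, with a 95% exact interval of 24.96 to 104.8, and 8.71 for miR-22-treated HCC against healthy livers, with an interval of 4.38 to 19.7. These intervals cover counting error only. Npas2 rose by 5.53 in untreated HCC on the log2 scale (SE 0.418, edgeR adjusted p = 3.79e-07). It was tested only through the livers where it is high, and of the other 7 members 6 were called. With miR-22 the log2 fold change was −2.47 (SE 0.302, edgeR adjusted p = 0.000275), the fall ranked 5 among 15717 tested genes, and against healthy livers Npas2 stayed higher by 3.07 (SE 0.481, edgeR adjusted p = 0.000389). The exons of Npas2 share 697 bases, or 12.72% of their length, with the antisense RNA Gm53549, and since the library did not mark strand, reads of the pair cannot be told apart there.

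Clock (ENSMUSG00000029238.11, chr5:76342860-76452846, minus strand), the histone acetyltransferase partner of BMAL1, differed least among the activators. It measured 890.3, 917 and 1002 in healthy livers, 1598, 1358 and 1381 in untreated HCC, and 1176, 1002 and 978 in miR-22-treated HCC. Untreated HCC stood above both other groups, which overlapped. Clock rose in untreated HCC by 0.63 (log2, SE 0.1002, edgeR adjusted p = 0.000169), close to the fold threshold, and the call was lost without healthy replicate 1 (0.58) or untreated HCC replicate 2 (0.55). With miR-22 its log2 fold change of −0.46 (SE 0.0997, edgeR adjusted p = 0.00619) passed the adjusted p but not the fold threshold, and it was 0.17 against healthy livers (SE 0.101, edgeR adjusted p = 0.217). Clock shares 2047 exonic bases, 11.87% of its exons, with the opposite-strand gene Tmem165, which had a log2 fold change of 1.00 in untreated HCC (edgeR adjusted p = 8.398e-05), and the reads of this stretch cannot be assigned to a strand.

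Among the repressors, Per3 (ENSMUSG00000028957.12, chr4:151081373-151129140, minus strand), the member with the miR-22 seed match, moved most. It measured 3369, 3404 and 2759 in healthy livers, 255, 559 and 331 in untreated HCC, and 1521, 1304 and 1249 in miR-22-treated HCC. The 3 groups were apart, with means of 3177 ± 363, 381 ± 158 and 1358 ± 144 (SD, n = 3 each). Per3 fell in untreated HCC by 3.06 on the log2 scale (SE 0.226, edgeR adjusted p = 3.09e-07). It rose with miR-22 by 1.83 (SE 0.219, edgeR adjusted p = 0.000233), and it was lower than in healthy livers by a log2 fold change of −1.23 (SE 0.2096, edgeR adjusted p = 0.000703).

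Per2 (ENSMUSG00000055866.9, chr1:91343700-91387069, minus strand), a scaffold of the repressor complex, was the most even member in healthy livers. Its levels were 1794, 1754 and 1829 in healthy livers, 750.0, 854 and 872 in untreated HCC, and 915, 1096 and 1475 in miR-22-treated HCC. Again the miR-22-treated livers lay between the other groups without overlap. Per2 fell in untreated HCC by 1.12 on the log2 scale (SE 0.141, edgeR adjusted p = 2.41e-05). With miR-22 the log2 fold change of 0.50 (SE 0.141, edgeR adjusted p = 0.0236) was under the fold threshold, and it passed without miR-22-treated replicate 2 (0.64, edgeR adjusted p = 0.00536). Against healthy livers Per2 was lower with miR-22 by a log2 fold change of −0.62 (SE 0.1402, edgeR adjusted p = 0.00413), a call lost by its fold without miR-22-treated replicate 2 (−0.49) or 3 (−0.58).

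Per1 (ENSMUSG00000020893.17, chr11:68986035-69002300, plus strand), the PER gene that also responds acutely to hormones and cyclic AMP, spread widely. It measured 509, 678 and 1202 in healthy livers, 363, 411 and 362 in untreated HCC, and 629, 1425 and 1275 in miR-22-treated HCC. Every untreated liver was below every other liver, while healthy and miR-22-treated livers overlapped. Per1 fell in untreated HCC by 1.08 on the log2 scale (SE 0.309, edgeR adjusted p = 0.00972), a call that was lost without healthy replicate 3 (−0.66, edgeR adjusted p = 0.0635). It rose with miR-22 by 1.55 (SE 0.309, edgeR adjusted p = 0.00386). Against healthy livers the log2 fold change was 0.48 (SE 0.300, edgeR adjusted p = 0.241), which became a call without healthy replicate 3 (0.89, edgeR adjusted p = 0.0328) or miR-22-treated replicate 2 (0.74, edgeR adjusted p = 0.0439).

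The 2 cryptochromes, the strongest direct repressors of the activator pair, differed in their patterns. Cry2 (ENSMUSG00000068742.11, chr2:92233894-92264474, minus strand) measured 1609.9, 1524 and 1365 in healthy livers, 414, 429 and 456 in untreated HCC, and 792, 831 and 775 in miR-22-treated HCC. The 3 groups were far apart for their spread, with means of 1500 ± 124, 433 ± 21.3 and 799.6 ± 28.8 (SD, n = 3 each). Cry2 fell in untreated HCC by 1.79 on the log2 scale (SE 0.0902, edgeR adjusted p = 2.2e-08) and rose with miR-22 by 0.88 (SE 0.0897, edgeR adjusted p = 8.98e-05). Against healthy livers it was lower with miR-22 by a log2 fold change of −0.91 (SE 0.0879, edgeR adjusted p = 8.61e-06).

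Cry1 (ENSMUSG00000020038.10, chr10:84967560-85021252, minus strand) measured 316, 351 and 479 in healthy livers, 376, 362 and 336 in untreated HCC, and 199, 165 and 315 in miR-22-treated HCC. Healthy and untreated livers overlapped, with a log2 fold change of −0.09 (SE 0.208, edgeR adjusted p = 0.722). All miR-22-treated livers were below both other groups, the highest of them only just. Cry1 fell with miR-22 by 0.65 on the log2 scale (SE 0.213, edgeR adjusted p = 0.0418). This call was lost when healthy replicate 2, any of the untreated livers 2, 3 and 4, or miR-22-treated replicate 2 or 3 was left out in turn (edgeR adjusted p = 0.05695 to 0.164). Against healthy livers the log2 fold change was −0.75 (SE 0.215, edgeR adjusted p = 0.0163), and it was lost without healthy replicate 3 (−0.57, edgeR adjusted p = 0.0771) or without miR-22-treated replicate 2 or 3 (edgeR adjusted p = 0.0518 and 0.0571).

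**Figure D2:**
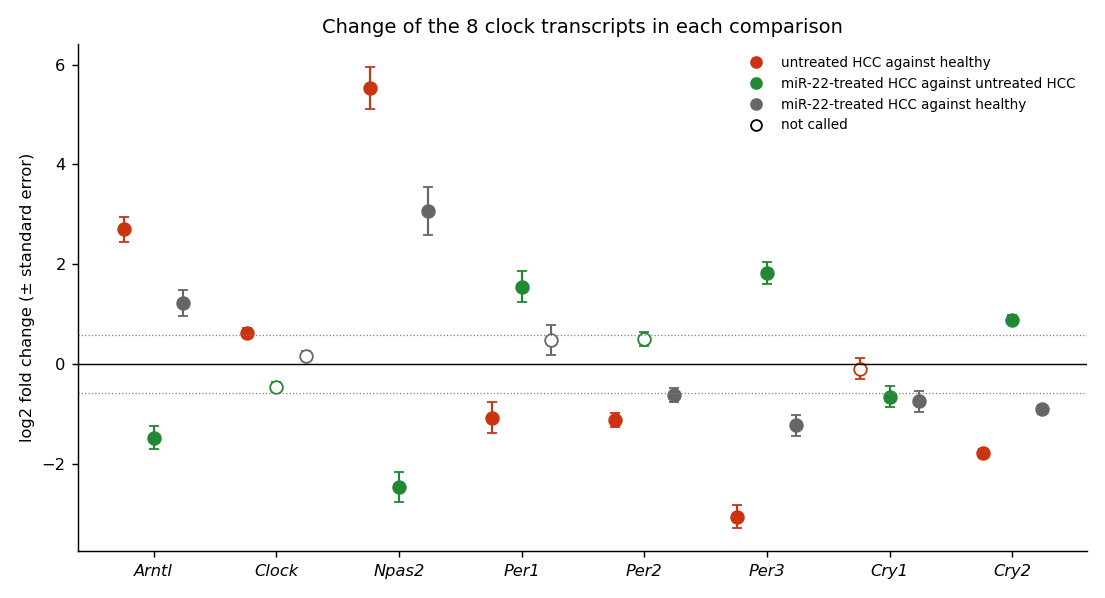
Log2 fold change of each clock gene in the 3 comparisons, with bars of 1 SE from edgeR. Filled points were called, open points were not, and the dotted lines mark a fold change of 1.5. Red is untreated HCC against healthy livers, green is miR-22-treated against untreated HCC, and grey is miR-22-treated HCC against healthy livers. Npas2 reaches 5.53 and Per3 −3.06 in untreated HCC, and the points of Cry1 are below 0 in all 3.

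Divided by the length of their annotated exons, the members can be ranked by level. This length is the union of all annotated exons, not that of the transcripts expressed, and the order of the members depends on it. The lengths are those of GENCODE vM39, whereas the methods name GENCODE release 25 beside GRCm39, so counts and lengths may rest on different annotations. In healthy livers Per3 was highest with 15.6 ± 1.78 CPM per kb, followed by Per2 with 14.1 ± 0.295, Cry2 with 9.01 ± 0.745, Per1 with 5.36 ± 2.43, Cry1 with 3.95 ± 0.887 and Clock with 2.80 ± 0.174. Arntl followed with 0.227 ± 0.0461 and Npas2 was last with 0.0325 ± 0.00875. The neighbours Per3 and Per2, and Per1 and Cry1, overlapped between livers. In untreated HCC the order was Per2 (6.48 ± 0.516), Clock (4.32 ± 0.397), Cry1 (3.71 ± 0.211), Cry2 (2.60 ± 0.128), Per1 (2.55 ± 0.189), Per3 (1.87 ± 0.777), Npas2 (1.57 ± 0.437) and Arntl (1.48 ± 0.359), and the last 5 overlapped neighbour by neighbour. There Npas2 and Arntl overlapped on this scale, with exons of 5.478 and 11.573 kb, while their mean normalized counts were 167 and 333. Per3, first in healthy livers, was among the last 3. In miR-22-treated HCC Per2 (9.12 ± 2.24), Per1 (7.47 ± 2.85) and Per3 (6.67 ± 0.708) led and overlapped in turn, then came Cry2 (4.80 ± 0.173), Clock (3.14 ± 0.323), Cry1 (2.34 ± 0.815), Arntl (0.529 ± 0.143) and Npas2 (0.281 ± 0.108). Clock and Cry1, and Arntl and Npas2, overlapped there.

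Ratios of 2 members within a liver do not depend on the scaling of libraries and are given without a test. Npas2 had 0.274, 0.4 and 0.4255 counts per 100 of its paralog Clock in healthy livers, 13.37, 8.893 and 12.13 in untreated HCC, and 3.396, 1.728 and 3.302 in miR-22-treated HCC. Arntl had 3.059, 2.23 and 3.205 counts per 100 of Per2 in healthy livers, 55.76, 30.21 and 36.99 in untreated HCC, and 14.06, 7.562 and 9.825 in miR-22-treated HCC. Both ratios kept the 3 groups apart, with the miR-22-treated livers in between. For Cry1 per 100 counts of Cry2 the values were 19.62, 23.02 and 35.05 in healthy livers, 90.99, 84.41 and 73.77 in untreated HCC, and 25.07, 19.79 and 40.6 in miR-22-treated HCC. Here the untreated livers stood alone and the other groups overlapped.

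**Figure D3:**
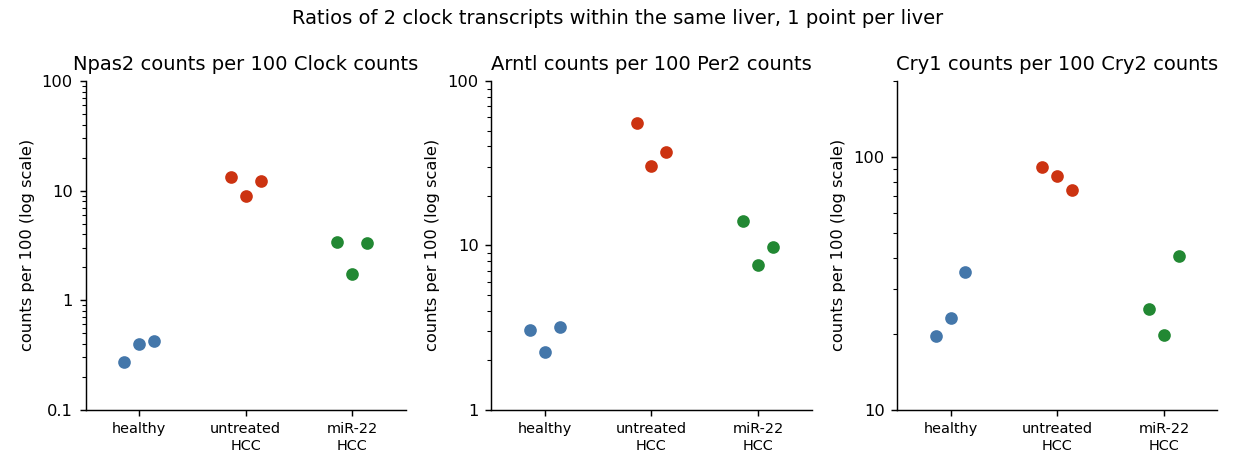
Counts of one clock gene per 100 counts of another in each liver, on log axes, for Npas2 over Clock, Arntl over Per2 and Cry1 over Cry2. Each point is 1 liver. All untreated livers are above all other livers in each panel, and the healthy and miR-22-treated livers overlap for Cry1 over Cry2.

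The members differed in how far livers of 1 group spread. The coefficient of variation over 3 livers had a median of 11.3% over all tested genes in healthy livers, 11.6% in untreated HCC and 13.9% in miR-22-treated HCC. For Per1 it was 45.4% in healthy livers and 38.1% in miR-22-treated HCC but 7.43% in untreated HCC. For Per3 it was highest in untreated HCC, with 41.5%. Per2 had the least spread in healthy livers with 2.09%, and Cry2 in miR-22-treated HCC with 3.604%. Healthy replicate 3 held the highest Arntl, Clock, Npas2, Per1, Per2 and Cry1 of its group and the lowest Per3 and Cry2. In miR-22-treated HCC, replicate 3 held the lowest Arntl, Npas2 and Cry1 with the highest Per1 and Cry2. Clock, Per2 and Per3 lay between the other livers there. No test was made of a difference in spread.

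The genes whose log2 profile over the 9 livers lay nearest to a member, by root mean square difference after centring, are given as a description. For Arntl they were Chka (0.187) and Prag1 (0.230), where the median over all tested genes was 1.15. For Npas2 they were Slit3 (0.511) and Elf3 (0.531), with a median of 2.06, and for Clock Mid2 (0.0746) and Snrnp40 (0.0783), with a median of 0.451. The distance was not scaled for range or counting noise. The genes nearest to Npas2 lay farther off than those nearest to the other members. Its median over all tested genes was also the largest of the 8, and its healthy livers held 2 to 4 counts. For the repressors they were Gm16023 (0.294) and Slc25a32 (0.298) for Per1, Sall1 (0.0899) and Txlng (0.112) for Per2, and Gm37928 (0.228) and Fn3k (0.254) for Per3. For the cryptochromes they were Lbhd1 (0.130) and Cbx8 (0.190) for Cry1, and Acy1 (0.0936) and Pdp2 (0.102) for Cry2. No member was among the nearest 2 genes of another.

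Around the loop, further clock genes were read from the same fit. Nr1d2, which encodes the repressor REV-ERBβ, averaged 3457 ± 114 in healthy livers, 1217 ± 179 in untreated HCC and 2954 ± 242 in miR-22-treated HCC (SD, n = 3 each). It fell by 1.51 on the log2 scale in untreated HCC (edgeR adjusted p = 3.51e-07) and rose by 1.28 with miR-22 (edgeR adjusted p = 3.15e-05). Nr1d1, which encodes REV-ERBα and was chosen after its values were seen, had log2 fold changes of −0.41 (edgeR adjusted p = 0.112) and 0.22 (edgeR adjusted p = 0.479), with overlapping livers. Without untreated HCC replicate 4 the first of these became a call (−0.60, edgeR adjusted p = 0.03409).

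Of the 4 D-box factors, 3 fell in untreated HCC, with a list median of −1.77, where 18.1% of all tested genes were called lower. With miR-22 2 of 4 rose, with a median of 1.06, where 8.32% of all tested genes were called higher. Tef averaged 6787 ± 460.2 in healthy livers, 1124 ± 225 in untreated HCC and 3687 ± 337 in miR-22-treated HCC (SD, n = 3 each). Tef fell by 2.59 on the log2 scale (edgeR adjusted p = 4.4e-08) and rose by 1.71 (edgeR adjusted p = 2.02e-05), and Dbp fell by 2.36 (edgeR adjusted p = 1.54e-06) and rose by 1.58 (edgeR adjusted p = 0.000435). Hlf fell by 1.178 in untreated HCC (edgeR adjusted p = 4.97e-06), and with miR-22 its 0.54 was under the fold threshold (edgeR adjusted p = 0.00814), which it passed without untreated HCC replicate 4 (0.66) or miR-22-treated replicate 2 or 4 (both 0.59). Nfil3, the repressor of D-boxes, was called in no comparison. Against healthy livers 3 of 4 were lower with miR-22, with a median of −0.71, where 7.05% of all tested genes were called lower.

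Of the 5 other E-box repressors and partners, 2 rose and 2 fell in untreated HCC, with a median of −0.46, where 40.8% of all tested genes were called. Ciart, a repressor of the activator pair, spanned 393 to 451 in the healthy group and 21.7 to 23.5 without miR-22, and with it measured 97.6, 363 and 77.5 in replicates 2, 3 and 4, of which replicate 3 stood apart. It fell by 4.22 on the log2 scale in untreated HCC (edgeR adjusted p = 1.47e-05) and rose by 2.98 with miR-22 (edgeR adjusted p = 0.00165), or by 1.96 without miR-22-treated replicate 3 (edgeR adjusted p = 0.0001468). Cipc, an inhibitor of CLOCK, fell by 1.08 in untreated HCC (edgeR adjusted p = 1.17e-06). Arntl2, a paralog of Arntl, rose by 2.14 (edgeR adjusted p = 0.00213) from 3 to 8 counts in healthy livers to 26 to 32 counts, and without healthy replicate 1 by 2.79. The remaining riser was Bhlhe41, with 3 to 11 counts in healthy livers, whose call was lost without healthy replicate 1 or untreated HCC replicate 3 (edgeR adjusted p = 0.05271 and 0.05174). Both risers passed the filter on low counts through the HCC livers, where they are high. With miR-22, Ciart was the 1 gene of 5 called against untreated HCC, where the median was 0.05 and 13.8% of all tested genes were called. Against healthy livers 2 were higher and 2 lower, with a median of −0.41, where 24% of all tested genes were called. These 4 calls against healthy livers became 1 without healthy replicate 2 and 2 without healthy replicate 1 or 3 or miR-22-treated replicate 2 or 4, and DESeq2 called 3.

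Of 11 tested enzymes and partners of PER and CRY turnover, 1 rose and 2 fell in untreated HCC, with a median of 0.10, which is 27.3% called against 40.8% of all tested genes. Prkaa2, a catalytic subunit of the kinase AMPK, fell by 0.87 on the log2 scale (edgeR adjusted p = 1.05e-05), Fbxl21, a ubiquitin ligase subunit for cryptochromes, fell by 1.28 (edgeR adjusted p = 0.000369), and Csnk1e, casein kinase 1ε, rose by 0.68 (edgeR adjusted p = 0.00136), a call lost by its fold without untreated HCC replicate 3 (0.54). With miR-22 edgeR called 0 of the 11 against untreated HCC, where 13.8% of all tested genes were called. Of the 11, 4 had an unadjusted p under 0.05, DESeq2 and limma called 0, and the median was 0.005. Against healthy livers 1 was lower with miR-22, with a median of 0.05, or 9.09% called against 24% of all tested genes. Of 10 clock co-regulators, Sirt1, a NAD-dependent deacetylase, was the 1 called, falling by 0.89 in untreated HCC (edgeR adjusted p = 0.000143) and rising by 0.74 with miR-22 (edgeR adjusted p = 0.00295), and the list medians were −0.01 and −0.05. That is 10% called in each of these comparisons, against 40.8% and 13.8% of all tested genes. Against healthy livers edgeR called 0 of the 10 with miR-22, where 24% of all tested genes were called. Of the 10, 1 had an unadjusted p under 0.05, and DESeq2 and limma called 0.

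All 10 of the genes listed as clock outputs in liver fell in untreated HCC and all 10 rose with miR-22, with medians of −1.93 and 1.86, where 18.1% of all tested genes were called lower in the first comparison and 8.32% higher in the second. Of the 10 rises, that of Wee1 was lost without untreated HCC replicate 2 or 4 or miR-22-treated replicate 3 or 4 (edgeR adjusted p = 0.05779 to 0.07695), and that of Noct, named after its night-time peak, without miR-22-treated replicate 3 (edgeR adjusted p = 0.05103). Por, the electron donor of cytochrome P450 enzymes, fell by 2.52 on the log2 scale (edgeR adjusted p = 1.25e-07) and rose by 1.85 (edgeR adjusted p = 2.75e-05). Nampt, the rate-limiting enzyme of NAD salvage, fell by 2.00 (edgeR adjusted p = 2.63e-07) and rose by 1.58 (edgeR adjusted p = 4.11e-05). Upp2, a uridine phosphorylase, fell by 6.28 (edgeR adjusted p = 4.82e-07) and rose by 5.97 (edgeR adjusted p = 2.02e-05). The list was drawn up with results of these data known, so its direction is no independent evidence. Against healthy livers 1 was higher with miR-22 and 3 were lower, with a median of −0.36, where 24% of all tested genes were called. The lower call of Usp2, a ubiquitin protease, was lost without healthy replicate 2 or 3 or miR-22-treated replicate 4 (edgeR adjusted p = 0.06397 to 0.07129). Wee1, a mitotic kinase, was lower by a log2 fold change of −0.97 (edgeR adjusted p = 0.00121) and Por by −0.66 (edgeR adjusted p = 0.0052), while Lpin1, a phosphatidate phosphatase, was higher by 1.51 (edgeR adjusted p = 0.0071), with miR-22-treated livers at 3318 to 14097. Without miR-22-treated replicate 3 the difference of Lpin1 was 0.70 (edgeR adjusted p = 0.006058) and its rise over untreated HCC 1.98 in place of 2.78, and without replicate 2 the call of Por was lost by its fold (−0.55).

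**Figure D4:**
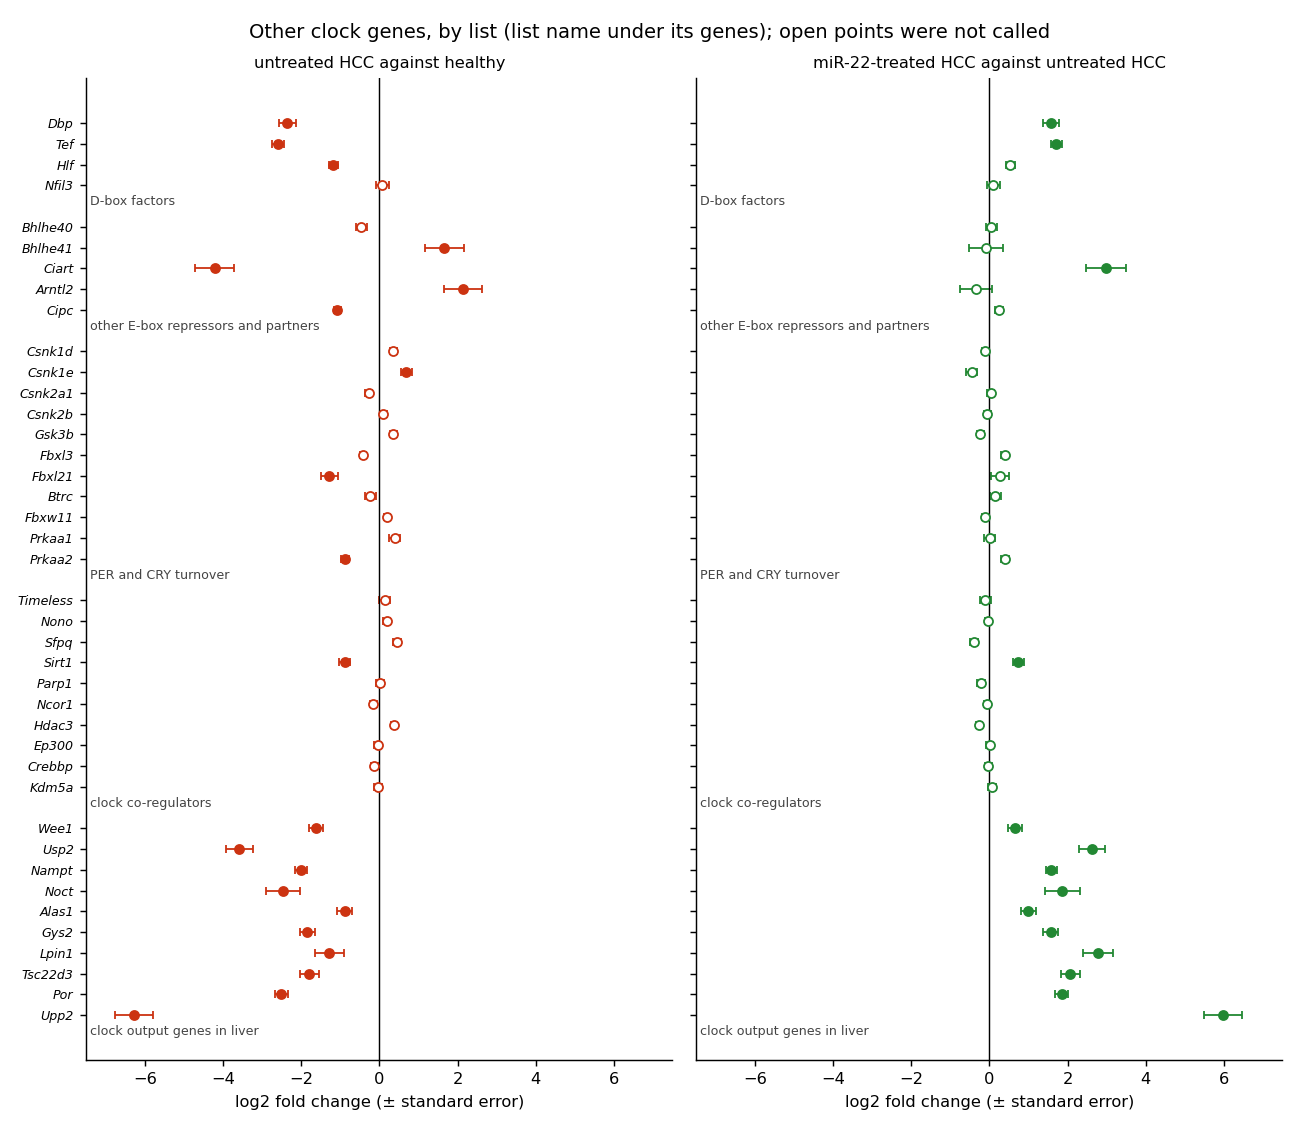
Log2 fold changes of the tested genes of 5 further clock lists, with bars of 1 SE from edgeR, for untreated HCC against healthy livers on the left and miR-22-treated against untreated HCC on the right. Each row is 1 gene, the list's name stands under its genes, filled points were called and open points were not. All 10 clock output genes lie below 0 on the left and above 0 on the right, while the 11 turnover genes are all open on the right.

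Markers of several cell types in liver differed between the groups, while the summed levels of T and B cell markers overlapped in all 3 groups and those of macrophage markers in healthy livers overlapped with both HCC groups. Each sum follows the most abundant markers of its list. The 6 hepatocyte markers, none of which was at 0, summed to 113751 to 120245 CPM in the healthy group, 48431 to 59738 CPM without miR-22 and 71726 to 85976 CPM with it. Alb had by far the highest mean of these 6 in every group. All 6 hepatocyte markers fell in untreated HCC, with a median of −1.10, where 18.1% of all tested genes were called lower. With miR-22 3 of 6 rose, with a median of 0.67, where 8.32% of all tested genes were called higher. The 4 cholangiocyte markers summed to 5.66 to 9.93 CPM in the healthy group, 85.1 to 137 CPM without miR-22 and 34.8 to 58.5 CPM with it. Sox9 had the highest mean of these 4 in every group, and Krt19 was called in no comparison. The 5 endothelial markers summed to 324 to 409, 202 to 259 and 267 to 348 CPM, and the 5 stellate and fibroblast markers to 199 to 233, 342 to 396 and 325 to 356 CPM. Col1a1 averaged 112, 3734 and 1939 normalized counts in the same groups. In untreated HCC Pdgfrb and Acta2 rose as well, while Lrat and Dcn fell. Neutrophil markers summed to 0.315 to 1.63, 6.84 to 9.94 and 6.50 to 11.4 CPM, with Ly6g at 0 in healthy and untreated livers. The macrophage markers summed to 241.5 to 294, 224 to 257 and 278 to 292 CPM and those of T and B cells to 5.44 to 7.54, 6.65 to 9.31 and 6.12 to 9.09 CPM. Over all tested genes 40.8% were called in untreated HCC against healthy livers, 22.7% higher and 18.1% lower. In untreated HCC 3 of 4 cholangiocyte markers rose, 3 of 5 endothelial markers fell, and 3 of 5 stellate and fibroblast markers rose and 2 fell. Of 4 neutrophil markers 2, S100a8 and S100a9, were called higher but passed the filter on low counts only through the HCC livers. Of the 5 macrophage markers 1 rose, and of the 7 T and B cell markers 1 rose and 1 fell. With miR-22, 2 of 4 cholangiocyte markers fell against untreated HCC, 1 of 5 endothelial markers rose, and 2 of 5 stellate and fibroblast markers rose and 1 fell. Over all tested genes 13.8% were called in this comparison, 8.32% higher and 5.47% lower. For macrophage, T and B cell and neutrophil markers edgeR, DESeq2 and limma each called 0 there, where 1, 1 and 0 had an unadjusted p under 0.05 in edgeR. The part of these cell types in the results for the clock genes was not tested.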

How the data were processed

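Whole-liver RNA of 9 female mice, 3 per group, was sequenced with a non-directional kit. Per the labels and the methods, reads were checked with FastQC 0.11.7, estimated per transcript with Salmon on GRCm39 and summed per gene with tximport, and DESeq2 1.18 was used. The authors deposited whole-number counts per gene, neither normalized nor filtered, and the same counts divided by a size factor per library. These deposited signal values, multiplied by that factor, were whole in 100% of cases within a tolerance of 0.01, and 100% of them equalled the counts. The counts served for every result.

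All 3 groups were fitted together, without covariates, by the quasi-likelihood method of edgeR 4.0.16 (R 4.3.3) after TMM scaling and filterByExpr. Tests were two-sided and their p-values were adjusted over 15717 genes by Benjamini-Hochberg. Calls needed an adjusted p below 0.05 together with a change of more than 1.5-fold. The steps were tested on simulated data. Npas2 ratios have exact 95% intervals from summed counts. Likeness of profiles used log2(CPM + 0.1). Levels per kb used the union of exons in GENCODE vM39 on GRCm39, where Arntl is named Bmal1, and promoters and miR-22-3p came from RefSeq on GRCm38.p6.

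The members and lists were chosen with earlier results of these data known. By rule, all 8 members were named, up to 3 called genes with the smallest p per list and comparison, and the 2 genes most alike to each member. Alternatives were DESeq2 1.42.0, its size factors, upper-quartile scaling, other filters on low counts, a fit to 2 groups, the replicate number as a block, limma 3.58.1, each liver left out, no fold threshold and glmTreat. Counts recovered from the signal values were added after the data were seen. The list of REV-ERB and ROR genes is not reported here as a whole.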

Additional observations from a re-analysis of the deposited data

How the results depend on the processing

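Of 477 values of the 8 members under 20 alternatives, 450 kept their direction and their side of the threshold, 21 lost a call, 5 gained one and 1 changed sign. The change of sign was Cry1 in untreated HCC against healthy livers, −0.09 (log2), which became 0.092 without healthy replicate 3, with neither value called, and it was −0.23 to 0.092 with 1 liver left out in turn. The number of members called ranged over all alternatives from 5 to 7 in untreated HCC against healthy livers, from 5 to 8 for miR-22-treated against untreated HCC, and from 4 to 6 for miR-22-treated HCC against healthy livers. With edgeR's glmTreat, which tests against a fold of 1.5 itself, 5, 5 and 4 members were called, and the calls of Clock (adjusted p = 0.364) and Per1 (adjusted p = 0.0727) in untreated HCC, of Cry1 with miR-22 (adjusted p = 0.977) and of Per2 and Cry1 against healthy livers (adjusted p = 0.656 and 0.395) were lost. DESeq2 size factors and upper-quartile scaling left the number called at 7, 6 and 6 and moved the median of all genes by under 0.1 (log2). At 10 counts or more in every library Npas2 was not tested. Without a fold threshold, 3777 genes in place of 2167 were called with miR-22 against untreated HCC and 5732 in place of 3772 against healthy livers, and glmTreat called 468 and 2010. Without miR-22-treated replicate 3, 1433 were called against untreated HCC.

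Whether the replicate numbers shared by the HCC groups pair the livers is not given. Deviations from the group mean correlated at −0.12, −0.13 and −0.23 for same-numbered livers and at −0.014 to 0.13 for other HCC pairs. With 3 livers per group these values are tied to each other and cannot exclude a pairing or a shared batch. With the replicate block, 7, 5 and 6 members were called, the lost call being Cry1 with miR-22 (−0.70, adjusted p = 0.0611), which a fit to the 2 groups alone also lost (adjusted p = 0.0503). Of the other E-box repressors and partners, the 4 calls with miR-22 against healthy livers were 2 with the replicate block, 2 at 10 counts or more in every library and 1 with glmTreat. Other lists moved by more than 1.5 times in their number of calls with no fold threshold (turnover 3 to 9, 0 to 3 and 1 to 4, co-regulators 1 to 3 in both comparisons with untreated HCC), with glmTreat (against healthy livers with miR-22, D-box factors 3 to 1, turnover 1 to 0 and output genes 4 to 1, and co-regulators 1 to 0 with miR-22 against untreated HCC) and with the replicate block (turnover 1 to 0 against healthy livers with miR-22). At 10 counts or more, the other E-box genes called in untreated HCC went from 4 to 2. Precision was limited by 3 livers per group and, for Npas2, by 2 to 4 counts per healthy library. Groups of 3 livers were not tested for outlying livers.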
